A study of Mus musculus with 18 samples.

Results

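The 10 genes described here are Bcl2, Bcl2l1, Bcl2l10, Bcl2l15, Mcl1, Bax, Bak1, Bok, Apaf1 and Cycs, which code for BCL2 family proteins and for the parts of the apoptosome. They were taken by gene symbol out of 47069 gene identifiers in RNA sequencing of mouse oocytes taken singly, and all 10 were found. The list was drawn up with earlier results of these data known. Germinal vesicle (GV) oocytes are immature and arrested in meiotic prophase, and metaphase II (MII) oocytes are eggs that have matured and await fertilization. Mice of the C57BL/6JAusb strain were controls aged 4 weeks (young), controls aged 12 months, or animals aged 12 months that drank water with 2 g/L nicotinamide mononucleotide (NMN, from which cells make NAD) over 4 weeks. Both control conditions drank water without NMN. Each library came from the cytoplasmic supernatant of 1 lysed oocyte after its nucleus had been spun down. The groups used were 2 GV young control, 2 GV aged control and 3 GV aged NMN oocytes, with 3 MII oocytes of each condition. The labels do not say which oocytes came from which animal, so a group counts as a single sample, groups are described without a test, and an SD below is the spread between oocytes of a group.

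BCL2 family proteins decide whether the outer mitochondrial membrane stays intact. BCL2, BCL-XL (from Bcl2l1) and MCL1 hold the membrane closed, whereas BAX, BAK (from Bak1) and BOK can form pores in it, and BH3-only proteins tip the balance between them. Once pores open, cytochrome c (from Cycs), otherwise an electron carrier of the respiratory chain, reaches the cytosol and binds APAF1, and the assembled apoptosome activates caspase 9. BCL2L10, also called Diva or Boo in the mouse, is a family member known for its expression in oocytes, and loss of Mcl1 from mouse oocytes is known to deplete the follicle reserve. Fully grown oocytes make almost no new RNA, and stored messages gain or lose their poly(A) tails through cytoplasmic elements near the 3′ end.

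The 3′ ends of 4 of these messages are shown because stored oocyte transcripts are handled there, and because the 2 coding transcripts of Bcl2l15 end at different places. Each line gives the 30 bases that end with the polyadenylation hexamer, 5′ to 3′ on the transcript strand, from GENCODE vM21 transcripts on GRCm38. Capitals mark the hexamer, AATAAA or ATTAAA, and the cytoplasmic polyadenylation element, searched as TTTTAT or TTTTAAT on the transcript strand only. The stretches lie at chr9:75351588-75351617 on the plus strand, chr3:103838600-103838629 and chr3:103854565-103854594 on the plus strand, chr6:50562577-50562606 on the minus strand and chr10:90989335-90989364 on the minus strand, in the order printed, and all are in the last exon of the transcript.
Bcl2l10-201: catTTTTAATaacttcaaattcttAATAAA
Bcl2l15-201: tgggtgggcgattgatttctgacaATTAAA
Bcl2l15-202: ggaTTTTATtgttttttttttctcATTAAA
Cycs-202: cattttaaccactgaagattgctaAATAAA
Apaf1-201: tttaaacatgaattttaaaacaaaAATAAA

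The element stood 14 bases before the hexamer in Bcl2l10-201 and 15 bases before it in Bcl2l15-202, and was not in the printed stretch of Bcl2l15-201, Cycs-202 or Apaf1-201. Over the last 100 bases of the longest coding transcript, 2 of the 10 genes held the element and 9 held the hexamer. Of 21901 genes searched in the same way, 3636 (16.6%) held the element and 16364 (74.7%) the hexamer. These are matches of letters only.

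Libraries held 2756183 to 5586857 counts, with a median of 3947700.5, and 3 counts, taken as the floor, made 0.537 to 1.09 CPM (counts scaled to a common library size) in a library. Of 12 oocyte markers all 12 had counts in both stages when the oocytes of a stage were pooled. Single MII oocytes had 11 or 12 of them in controls, but 8 in aged NMN 1, 9 in NMN 2 and 11 in NMN 2-1. The markers summed to 3282, 13266 and 16701 CPM in these NMN oocytes. The sums were 17479 to 45239 CPM in MII aged controls and 14676 to 60000 CPM in MII young controls. The part of these marker values in the MII aged NMN results was not tested. The titles put the oocytes in 2 batches, and oocytes numbered with a leading 2- are of batch 2. The libraries also differed in how many of their detected genes had a fractional count, meaning more than 0.005 from a whole number. Of 7 GV oocytes, aged control 1, NMN 1 and NMN 2 had shares of 20.9 to 23.6%, and the other 4 had 13.1 to 14.6%. GV young control 1 was among those 4 although its title gives batch 1, and its table was also deposited as a batch 2 oocyte. It is counted as batch 1, so batch values of GV young controls depend on that title. Among 9 MII oocytes the share was 19.5 to 29.0% in 6 oocytes taken as batch 1 and 11.9 to 13.8% in 3 of batch 2. The title of MII aged NMN 2 says batch 2 but lacks the further number that other batch 2 titles carry, and it is counted among the 6, so batch values of MII NMN oocytes depend on that reading. On these readings each group had a single oocyte in batch 2. The same holds for GV young and GV aged controls in batch 1. A value within batch 2 thus sets a single oocyte against a single oocyte. The summed oocyte markers were 36260 to 45162 CPM in the first 3 GV oocytes and 10043 to 13299 CPM in the other 4. MII aged NMN oocytes had 5679 to 7725 detected genes against 8539 to 10782 in MII aged controls. Mitochondrial genes took 43.0% and 33.2% of the counts of MII aged NMN 1 and 2, 6.18% in NMN 2-1, and 9.09 to 12.6% in MII aged controls. In MII young controls they took 24.4% in oocyte 1, 5.08% in oocyte 2 and 6.55% in oocyte 2-1. CPM is a share of a library, so less message and more of all other RNA cannot be told apart.

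Bcl2l10 was by far the most abundant of the 10 messages. On deposited TPM (a level scaled for transcript length and library), its median over 16 oocytes was 5136, with a range from 1377 to 16324. It was the highest of the 10 in 16 of 16 oocytes and supplied 65.2 to 99.3% of their summed TPM, with a median of 96.1%. Among all genes of an oocyte its TPM ranked between 6 and 151. Cycs followed with a median TPM of 192 and was second in 13 oocytes, while Apaf1, with a median TPM of 28.8, was second in the other 3. Bax had a median TPM of 10.6, Bcl2l15 of 5.33 and Bcl2l1 of 3.03. The ranges of these last 4 genes overlapped, so their order in single oocytes varied. Bcl2, Bak1, Bok and Mcl1 had a median of 0.

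**Figure D1:**
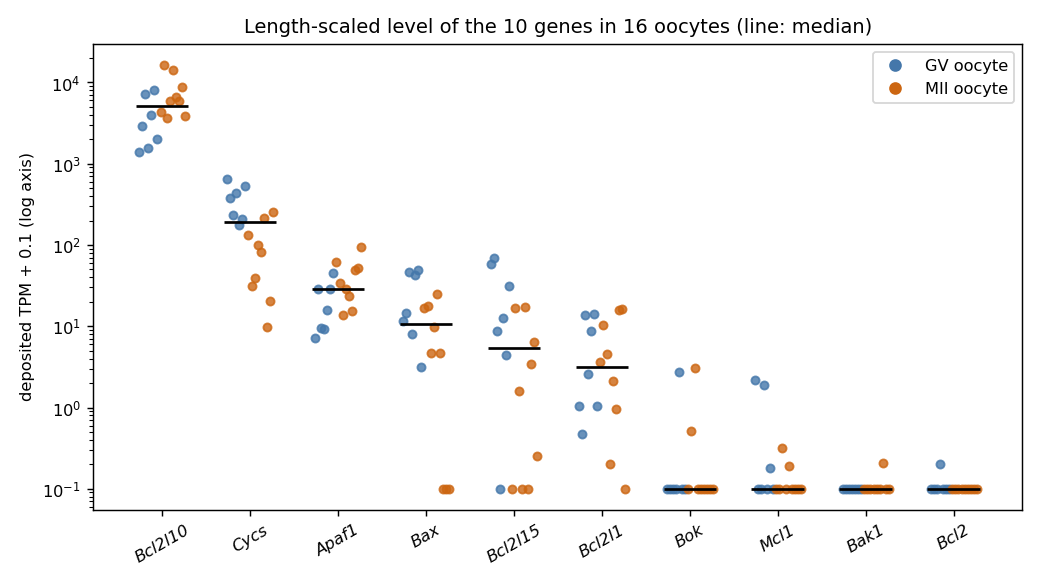
Deposited TPM plus 0.1 on a log axis for the 10 genes in 16 oocytes, 7 GV in blue and 9 MII in orange, with the median of the 16 as a line. Bcl2l10 lies above all other genes, from 1377 to 16324 TPM, and Bcl2, Bak1, Bok and Mcl1 lie at 0 in most oocytes.

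The share held by Bcl2l10 was lower in GV oocytes, where Cycs was higher. In GV young controls it was 65.2% and 85.6%, in GV aged controls 95.9% and 77.2%, and in GV aged NMN oocytes 93.9%, 96.3% and 76.8%. In the 9 MII oocytes it ran from 91.7 to 99.3%, and 3 of the GV values fall within that range. Cycs held 31.1% of the summed TPM in GV young control 1 and 0.163% in MII aged NMN 1.

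The mean of Bcl2l10 was higher in MII than in GV oocytes of each condition, though single oocytes overlapped. In GV oocytes its TMM-scaled CPM was 1881 and 3678 in young controls, 7388 and 1619.5 in aged controls, and 4740.2, 8624 and 2851 with NMN. In MII oocytes it was 6444, 12715 and 2039.9 in young controls, 4524, 11671 and 8472 in aged controls, and 11617, 18041 and 4619 with NMN. The 3 high values among GV oocytes are those of the oocytes with the high fractional share, 4740.2 to 8624 against 1619.5 to 3678 in the other 4. Group means were 2779 ± 1271 CPM (SD, n = 2) in GV young controls and 7066 ± 5365 (SD, n = 3) in MII young controls, a ratio of 2.54. The log2 ratio of means, computed here and below after adding 1 CPM, was 1.35 and was -0.85 within batch 2, so the direction differed between batches. Leaving out GV young control 1 gave 0.94 and leaving out MII young control 2 gave 0.61. In aged NMN mice the means were 5405 ± 2943 in GV and 11426 ± 6713 in MII oocytes (SD, n = 3 each), a log2 ratio of 1.08. Without MII aged NMN 1 and 2 it was -0.23. It was 0.99 without GV NMN 1, 0.77 without GV NMN 2-1 and 0.59 without MII NMN 2. On deposited TPM the means with NMN were less than 2-fold apart, at 4665 in GV and 6194 in MII oocytes. In aged controls the log2 ratio was 0.87, and 0.13 in batch 1 and 2.39 in batch 2.

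Means of Bcl2l10 differed by less than 2-fold with age and with NMN, with overlap between oocytes in each comparison. The log2 ratio of aged to young controls was 0.70 in GV oocytes, with -0.78 without GV aged control 1, 1.41 without GV aged control 2-1 and 1.26 without GV young control 2-2. The MII value was 0.22, with -0.24 in batch 1 and 2.05 in batch 2. NMN against aged controls gave 0.26 in GV oocytes, with 1.74 without GV aged control 1 and -0.45 without GV aged control 2-1. In MII oocytes it gave 0.47, with -0.02 without MII aged NMN 2, -0.83 without NMN 1 and 2, -0.095 on library totals and -0.53 on deposited TPM.

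**Figure D2:**
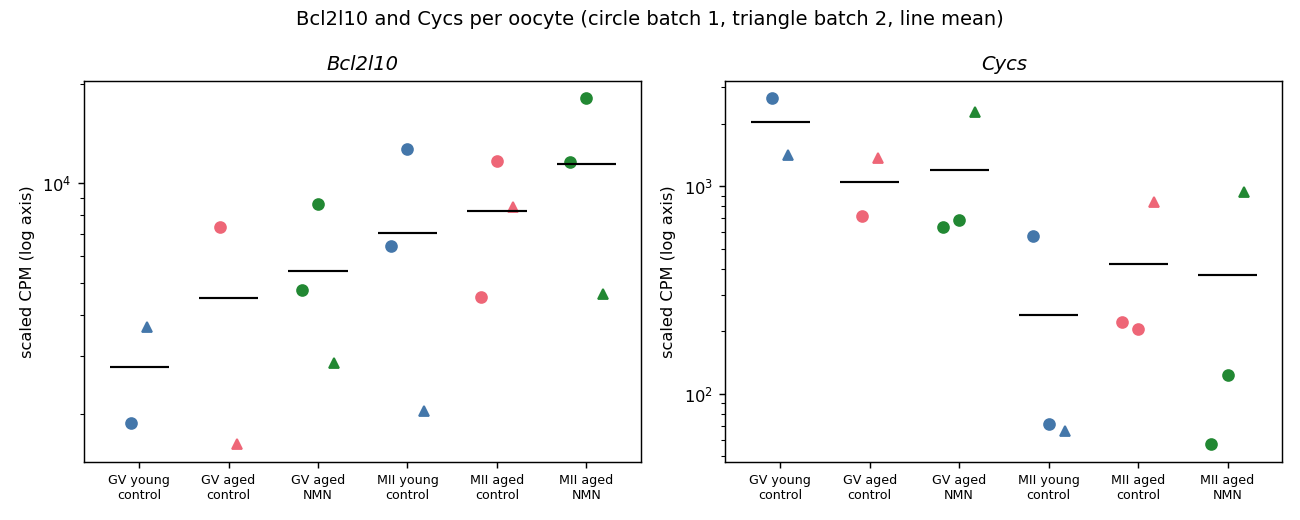
TMM-scaled CPM of Bcl2l10 and Cycs in each oocyte on log axes, by group, with batch 1 as circles, batch 2 as triangles and the group mean as a line. Cycs is lower in MII than in GV young controls without overlap, at 65.7 to 578 against 1416 and 2653 CPM, and Bcl2l10 overlaps between stages.

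Cycs, cytochrome c of somatic tissues and the other abundant message, was lower in MII than in GV oocytes in each condition. GV oocytes held 2653 and 1416 CPM in young controls, 719.9 and 1366 in aged controls, and 636, 684 and 2282 with NMN. MII oocytes held 578, 71.4 and 65.7 CPM in young controls, 222, 205 and 839.7 in aged controls, and 56.9, 123 and 935 with NMN. The groups did not overlap in young controls, where the MII mean was 8.54-fold lower, and they overlapped in aged controls and with NMN. The log2 ratio in young controls was -3.09, with -3.03 in batch 1 and -4.41 in batch 2. In aged controls it was -1.30, and -0.77 without GV aged control 2-1, -0.996 without MII aged control 1 and -0.97 without MII aged control 2. With NMN it was -1.69, -0.83 without GV NMN 2-1 and -0.36 without MII aged NMN 1 and 2. The MII level was the lower one in both batches of all conditions, with batch values of -1.75 and -0.70 in aged controls and of -2.87 and -1.29 with NMN. Those of batch 2 set single oocytes against each other. In young controls the batch 1 value rests on GV young control 1 being of batch 1, as its title says. Over the GV groups, 15733 counts pooled from young controls gave 1993 unscaled CPM (exact 95% Poisson interval 1962 to 2024), against 1107 (1085 to 1130) in aged controls, intervals that cover counting error only.

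In GV oocytes Cycs was lower in aged than in young controls, with a log2 ratio of -0.96 and no overlap, short of 2-fold. The 3 GV oocytes with the high fractional share had 636 to 719.9 CPM and the other 4 had 1366 to 2653. Among those 4, the aged to young value was -0.57. It was -1.35 without GV young control 2-2 and -1.50 without GV aged control 2-1. The expected count of Cycs was fractional in 16 of 16 oocytes, so reads were shared with other loci and its level is uncertain to that extent. MII aged controls had a log2 ratio of 0.82 over MII young controls with overlap, and its direction depended on the oocytes. It was 2.60 without MII young control 1, 1.13 and 1.15 without MII aged control 1 or 2, and -0.16 without MII aged control 2-1. Batch 1 gave -0.60 and batch 2 gave 3.66.

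Bcl2l1, the BCL-XL gene and an inhibitor of pore formation, was low but differed between groups in opposite directions at the 2 stages. Its CPM was 2.83 and 1.04 in GV young controls, 29.1 and 5.89 in GV aged controls, and 22.4, 25.2 and 3.08 in GV aged NMN oocytes. In MII oocytes it was 11.7, 17.6 and 5.37 in young controls, 0.176, 3.75 and 2.54 in aged controls, and 74.6, 42.5 and 0 with NMN. Aged controls were above young controls in GV oocytes and below them in MII oocytes, in each case with no overlap. In GV oocytes the mean was 9.03-fold higher in aged controls, 17.5 ± 16.4 against 1.94 ± 1.26 CPM (SD, n = 2 each), a log2 ratio of 2.66. In MII oocytes it was 5.36-fold lower in aged controls, 2.16 ± 1.82 against 11.6 ± 6.11 CPM (SD, n = 3 each), a log2 ratio of -1.99. Within batches these were 2.97 and 1.75 in GV, and -2.40 and -0.85 in MII oocytes. Pooled counts were 15 in GV young controls, or 1.90 unscaled CPM (exact 95% Poisson interval 1.06 to 3.13), and 190 in GV aged controls, or 21.8 (18.8 to 25.1).

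The GV values of Bcl2l1 moved with library features. They were 22.4 to 29.1 CPM in the 3 GV oocytes with the high fractional share and 1.04 to 5.89 CPM in the other 4, and without GV aged control 1 the aged to young log2 ratio was 1.23. The summed immune markers were 101 to 237 CPM in those 3 oocytes and 8.87 to 21.9 CPM in the 4 others. Of the 10 immune markers 5 had counts in a GV oocyte. C1qb alone gave 226.75, 97.2 and 165.6 CPM in GV aged control 1, NMN 1 and NMN 2, while Ptprc, C1qa, Adgre1 and Cd3e had no count. The part of these features in the Bcl2l1 values was not tested.

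From GV to MII oocytes Bcl2l1 was higher in young controls and lower in aged controls, each without overlap, at log2 ratios of 2.096 and -2.55. Values within batches had the same directions, at 2.03 and 1.64 in young and -3.34 and -0.96 in aged controls. Those of batch 2 rest on single oocytes of each group. The young value was 1.12 with GV young control 1 read as batch 2. These comparisons use the same oocytes as the age comparisons. With NMN the MII mean was 39.0 ± 37.4 CPM (SD, n = 3), against 2.16 in MII aged controls, a log2 ratio of 3.67 that came from NMN 1 and 2. MII aged NMN 2-1 had no count, the value was -1.66 without NMN 1 and 2 and -1.82 in batch 2, or 2.65 in batch 2 if NMN 2 is put there, and NMN 1 and 2 are the oocytes with 43.0% and 33.2% mitochondrial counts. From GV to MII with NMN it was 1.16, 0.31 without MII NMN 1 and 0.69 without GV NMN 2-1. NMN against aged controls in GV oocytes gave -0.05, with 1.38 without GV aged control 1 and -0.75 without GV aged control 2-1.

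Mcl1 and Bcl2, whose proteins also hold the membrane closed, were close to absent. Mcl1 had 44 counts in all, in 5 of 16 oocytes, with 15 in GV young control 1 and 25 in GV aged control 2-1, and 1 or 2 in each of the remaining 3. Its log2 ratios of -1.90 for NMN in GV, -1.37 for maturation in young and -1.91 in aged controls each rested on 1 of these oocytes. Without that oocyte they were 0.13, 0.19 and 0.12. Bcl2, which gives the family its name, had 3 counts, all in GV aged control 2-1. A group without a count allows up to 3 counts over its libraries, which is 0.187 to 0.389 scaled CPM for Bcl2 over the 5 groups at 0.

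Bcl2l15, a family member also called Bfk, had its highest level in GV young controls. GV young controls had 47.6 and 51.9 CPM, GV aged controls 4.73 and 0, and GV aged NMN oocytes 12.8, 3.80 and 26.1. MII oocytes had 0, 7.31 and 1.45 CPM in young controls, 0, 5.75 and 0 in aged controls, and 2.76, 22.0 and 0.312 with NMN. The 2 GV young controls lay above all 14 other oocytes. The mean was 21.0-fold lower in GV aged than in GV young controls, a log2 ratio of -3.91, and 17.0-fold lower in MII than in GV young controls, a log2 ratio of -3.70. Neither pair of groups overlapped. Values within batches were -3.08 and -5.73 for age, and -3.38 and -4.43 for maturation. Both GV young controls are among the 4 GV oocytes with the low fractional share, and against GV aged control 2-1 of that set, which had no count, the log2 ratio was -5.67. Pooled counts were 384 in GV young controls, or 48.6 unscaled CPM (exact 95% Poisson interval 43.9 to 53.8), and 27 in GV aged controls, or 3.09 (2.04 to 4.50).

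NMN groups had higher Bcl2l15 means than aged controls, with overlap in both stages. The GV log2 ratio was 2.18, with 0.70 in batch 1 and 4.76 in batch 2. The MII ratio of 1.68 came from MII aged NMN 2, and was -0.20 without it.

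The estimated length behind Bcl2l15 also differed between oocytes, which does not show which transcript was present. The deposited gene length, which averages transcript lengths by their estimated abundance, was 833 bases in both GV young controls, the length of the coding transcript Bcl2l15-201. It was 1902 bases, the length of Bcl2l15-202, in MII young control 2-1, MII aged NMN 2 and MII aged NMN 2-1. These 3 oocytes had 7, 71 and 1 counts, so only MII aged NMN 2 carries many. The other 7 oocytes with counts lay between 665 and 1068 bases. MII aged NMN 1, with 7 counts, lay at 665 bases, the length of the non-coding Bcl2l15-204. The 1902-base transcript is the one whose 3′ end above holds the TTTTAT element, and the 2 transcripts share 547 bases. A further annotated gene, Gm43064, shares 569 exon bases with Bcl2l15 on the same strand. In CPM, length plays no part, but in TPM the NMN value of MII oocytes was -0.65.

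**Figure D3:**
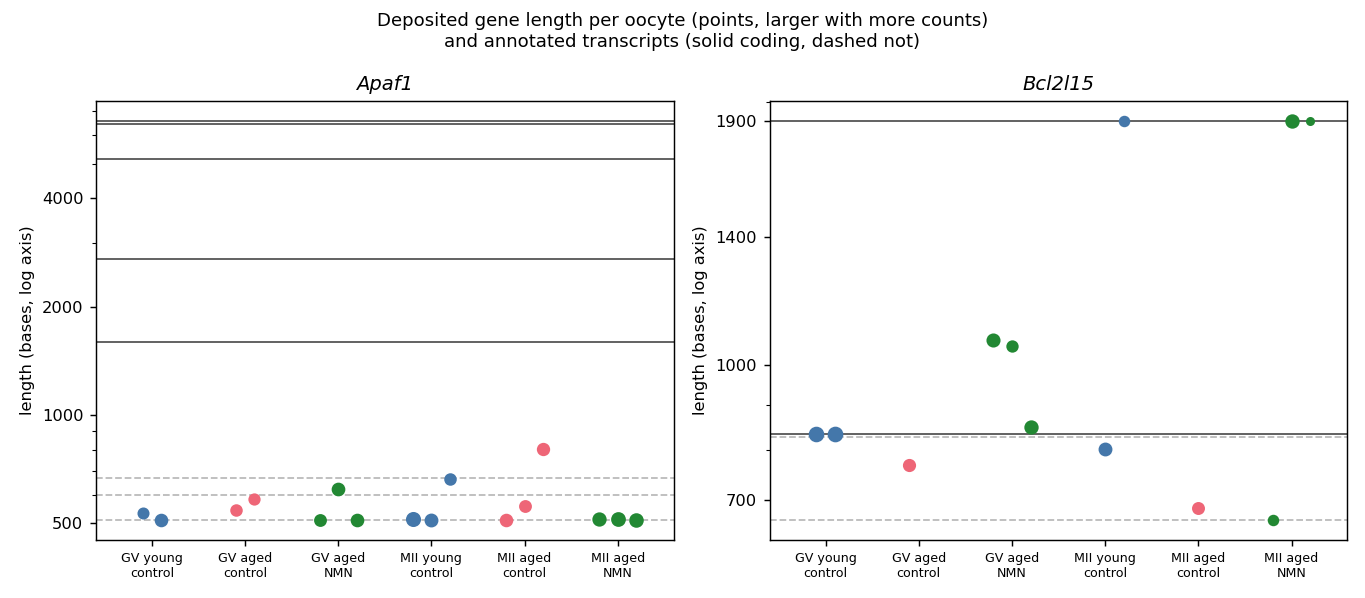
Deposited gene length in bases on log axes for Apaf1 and Bcl2l15 in each oocyte with a count, by group, with points that grow with the count and horizontal lines for annotated transcripts (solid if coding, dashed if not). Apaf1 lies at 511 to 802 bases, below its coding transcripts of 1596 to 6577 bases, and Bcl2l15 lies at 833 bases in GV young controls.

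Bax, the one pore-forming effector with counts in most oocytes, had no count in any MII aged NMN oocyte. GV oocytes had 10.04 and 11.5 CPM in young controls, 29.6 and 5.16 in aged controls, and 32.0, 32.3 and 2.69 with NMN. MII oocytes had 15.7, 8.71 and 1.65 CPM in young controls and 4.75, 12.5 and 3.63 in aged controls. The 3 MII aged NMN oocytes lay below all 13 others, each of which had counts. Taking 3 counts over the group, Bax was at least 20.8-fold lower than in MII aged controls and at least 66.7-fold lower than in GV aged NMN oocytes. The log2 ratios were -2.99 and -4.54, and -2.21 and -1.88 within batch 2. Without MII aged NMN 1 and 2, the oocytes with the high mitochondrial share, they were again -2.99 and -4.54. That was fixed beforehand, because no oocyte of the group had a count, so it cannot show whether those libraries matter. The 3 MII aged NMN libraries had the fewest detected genes, 5679 to 7725, and the part of this in the zeros was not tested. Pooled, they had 0 of 11166391 counts for Bax, with an exact 95% upper Poisson limit of 0.330 unscaled CPM, and MII aged controls had 87 counts, or 8.18 (6.55 to 10.1).

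In GV oocytes the level of Bax followed the fractional share, with 29.6 to 32.3 CPM in the 3 oocytes with the high share and 2.69 to 11.5 in the other 4. Groups overlapped for age in GV, at a log2 ratio of 0.65, with -0.93 without GV aged control 1 and 1.38 without GV aged control 2-1. For maturation in aged controls it was -1.21, and 0.37 without GV aged control 1. That value was -0.93 without MII aged control 2-1. Bax shares 192 exon bases with Gm45808 on the same strand, but its counts were whole in every oocyte.

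The remaining effectors were hardly detected. Bak1 had 1 count, in MII aged NMN 1. Bok, which can open the membrane without help from BH3-only proteins, had 22 counts in 3 oocytes, 10 in GV aged NMN 1, 2 in MII young control 2 and 10 in MII young control 2-1. In these oocytes 16 cumulus and granulosa markers summed to 98.5, 41.5 and 305 CPM. The sums ran from 8.84 to 98.5 CPM over GV and from 0 to 305 over MII oocytes. MII young control 1 had 169 CPM of these markers and no count of Bok. The part of such cells in the Bok counts was not tested. On the log2 ratio after adding 1 CPM neither reached 2-fold. As plain ratios against groups without a count, taking 3 counts over such a group, Bok differed by at least 2.04-fold to at least 3.29-fold in 4 comparisons, each with overlap.

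Apaf1, the scaffold of the apoptosome, was higher in NMN than in aged control oocytes at both stages, without overlap. GV aged controls had 2.81 and 3.19 CPM and GV aged NMN oocytes 4.80, 11.1 and 14.99. MII aged controls had 6.34, 5.25 and 10.9 CPM and MII aged NMN oocytes 26.5, 29.8 and 25.3. Means were 3.44-fold higher with NMN in GV oocytes, 10.3 ± 5.15 (SD, n = 3) against 2.999 ± 0.273 CPM (SD, n = 2). They were 3.63-fold higher in MII oocytes, 27.2 ± 2.33 against 7.49 ± 2.99 CPM (SD, n = 3 each). The log2 ratios were 1.50 and 1.73. Within batches they were 1.24 and 1.93 in GV and 2.0997 and 1.14 in MII oocytes. Leaving out single oocytes gave 1.16 to 1.81 and 1.55 to 2.05, and leaving out MII aged NMN 1 and 2 together gave 1.63. The counts behind these values are small, with 29 pooled in GV aged controls, or 3.32 unscaled CPM (exact 95% Poisson interval 2.22 to 4.77), and 101 in GV aged NMN oocytes, or 9.11 (7.42 to 11.1). In MII oocytes they were 87, or 8.18 (6.55 to 10.1), and 244, or 21.9 (19.2 to 24.8).

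Young controls overlapped with the NMN groups for Apaf1 at both stages. They had 2.83 and 9.65 CPM in GV and 25.3, 7.31 and 3.31 in MII oocytes. The MII young controls thus spread from below the MII aged controls to 25.31 CPM, just above the lowest NMN value of 25.29. MII young control 1, at 25.3 CPM, had 24.4% mitochondrial counts, and MII aged NMN 2-1, also at 25.3 CPM, had 6.18%. The part of the mitochondrial share in the Apaf1 values was not tested. From GV to MII the log2 ratio was 1.09 in aged controls and 1.32 with NMN, each without overlap, and 0.76 in aged controls without MII aged control 2-1. Batch 2 alone gave 0.72 with NMN. For age the direction depended on single oocytes. In GV oocytes the log2 ratio was -0.86, with -1.41 without GV young control 1 and 0.06 without GV young control 2-2. In MII oocytes it was -0.61, with -1.03 without MII young control 2-1, 0.43 without MII young control 1 and 1.47 in batch 2.

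The length behind Apaf1 was short in every oocyte, 511 to 802 bases. That is near Apaf1-204, an annotated non-coding transcript of 511 bases and 2 exons, of which 506 bases lie in the exons of the coding Apaf1-201, whose 6577 bases end at the same hexamer shown above. Its coding transcripts have 1596 to 6577 bases. The estimate therefore assigned the reads mainly to short annotated forms, and the TPM of Apaf1, but not its CPM, rests on that length.

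**Figure D4:**
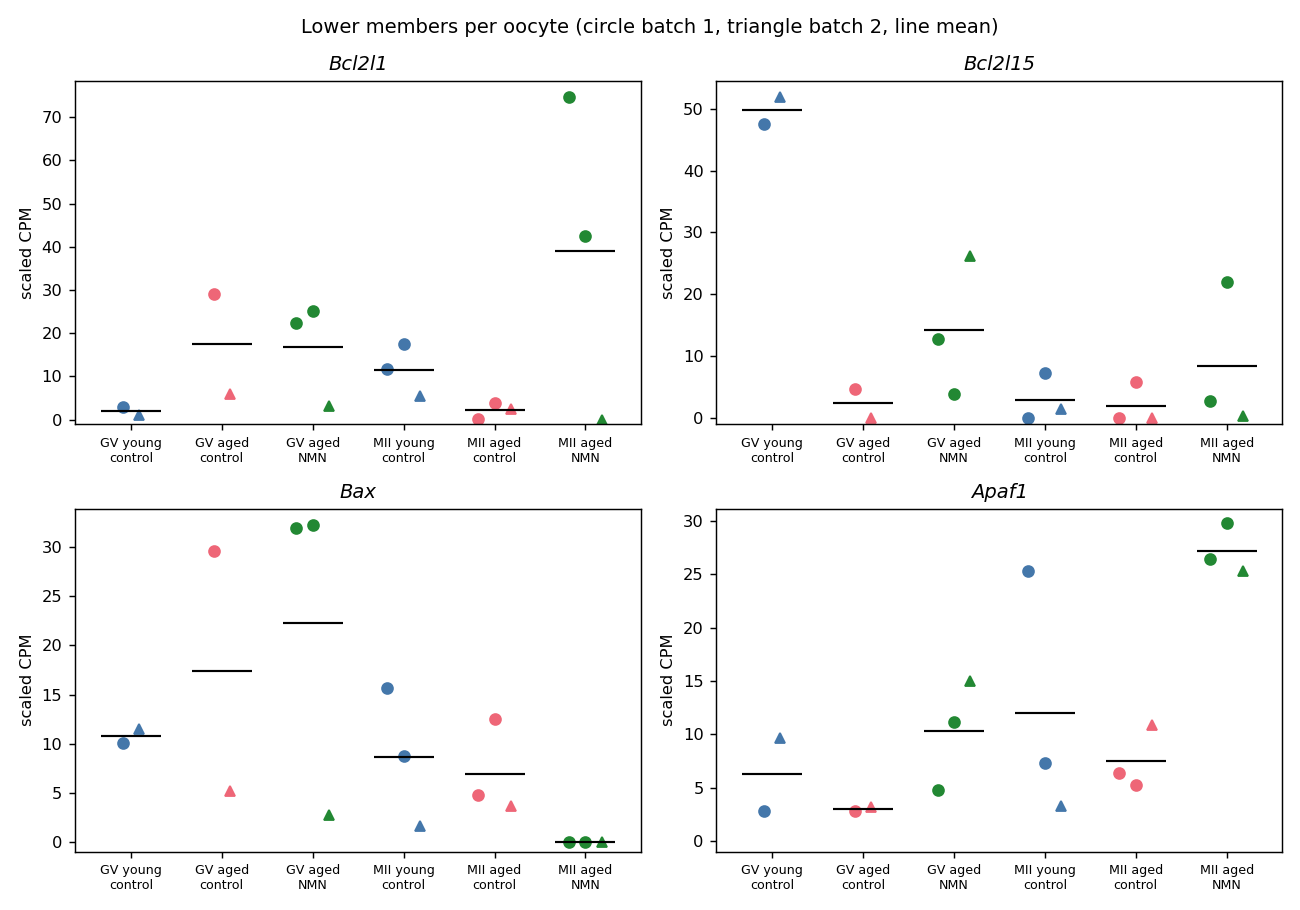
TMM-scaled CPM of Bcl2l1, Bcl2l15, Bax and Apaf1 in each oocyte by group, with batch 1 as circles, batch 2 as triangles and the group mean as a line. Apaf1 lies at 25.3 to 29.8 CPM in MII aged NMN oocytes against 5.25 to 10.9 in MII aged controls, and Bax is at 0 in all 3 MII aged NMN oocytes.

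The 10 genes were also counted together, and a called gene below is one at least 2-fold apart in log2 ratio of means after adding 1 CPM. Of the 10, 7 passed a filter on low counts, and Bcl2, Bak1 and Bok did not and were never called. The share called among all 12161 genes that passed is given beside each count. For age in GV oocytes 1 of 10 was higher (Bcl2l1) where 31.1% of all genes were, and 1 was lower (Bcl2l15) where 12.2% were. The median log2 ratio was 0.23 for the 10 and 0.29 for all genes. For age in MII oocytes none was higher (8.45% of all genes) and 1 was lower (Bcl2l1; 22.6%), with medians of -0.18 and -0.27.

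For NMN in aged GV oocytes 2 of 10 were higher (Bcl2l15, Apaf1), where 8.54% of all genes were, and 1 was lower (Mcl1), where 12.3% were, with medians of 0.23 and 0.01. For NMN in aged MII oocytes 3 were higher (Bcl2l1, Bcl2l15, Apaf1), with a background of 14.7%, and 1 was lower (Bax), with 33.1%, and the medians were 0.09 and -0.33. Of these 7 calls, Apaf1 at both stages and Bax came without overlap. The share of all genes without overlap was not counted, here or above, so a lack of overlap does not set these genes apart. The 2 NMN comparisons share no oocytes.

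For maturation in young controls 2 of 10 were higher (Bcl2l1, Bcl2l10; background 36.3%) and 3 were lower (Bcl2l15, Mcl1, Cycs; 25.8%), with medians of 0.00 and 0.35. In aged controls 1 was higher (Apaf1; 16.9%) and 4 were lower (Bcl2l1, Mcl1, Bax, Cycs; 35.9%), with medians of -0.33 and -0.29. With NMN 3 were higher (Bcl2l1, Bcl2l10, Apaf1; 16.9%) and 2 were lower (Bax, Cycs; 46.7%), with medians of -0.06 and -0.82. Counts out of 10 genes are too coarse to set against these shares, and nothing is read from them about the group.

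**Figure D5:**
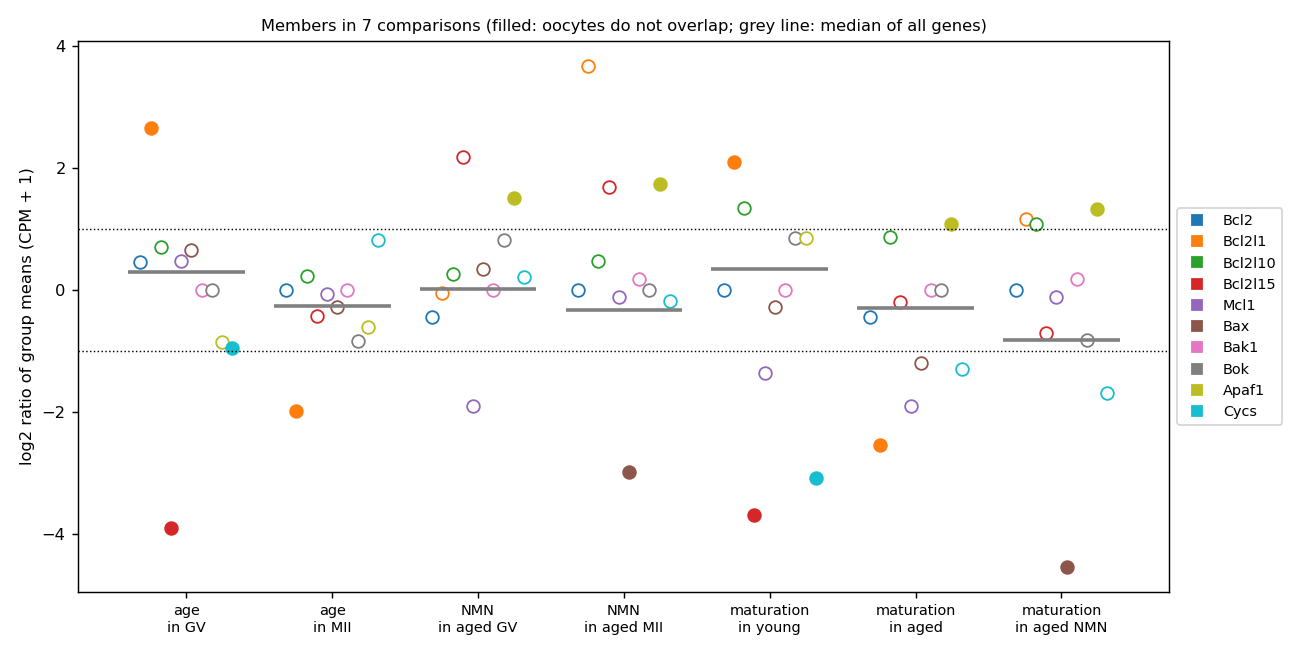
Log2 ratio of group means after adding 1 CPM for the 10 genes in 7 comparisons, filled where the oocytes of the groups do not overlap, with the median of 12161 genes as a grey line and 2-fold as dotted lines. Apaf1 is filled above the line in both NMN comparisons, at 1.50 and 1.73, and Bax is filled at -2.99 in MII oocytes.

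Other genes of the pathway were described from 8 lists, counted in the same way. Brackets give the share called among the 12161 genes that passed the filter on low counts, written as all genes. The counts take every gene of a list, so they and the shares are not over like sets. Genes that passed were 4 of 8 BH3-only, 2 of 7 other family, 5 of 10 caspase, 8 of 12 inhibitor and 4 of 8 death receptor genes. Without the filter, 19558 genes gave 21.9% higher and 8.82% lower for age in GV oocytes. As for the 10 genes, these counts are a description. BH3-only proteins, which start the pathway, had 1 of 8 higher (31.1% of all genes) and 0 lower (12.2%) for age in GV oocytes. For NMN in MII oocytes 2 were higher (14.7%) and 1 lower (33.1%). Bcl2l11 (BIM) had counts in 16 of 16 oocytes, with group means from 3.13 to 20.1 CPM, Bbc3 (PUMA) had none and Pmaip1 (NOXA) had 2 counts in 1 oocyte. Among 7 other BCL2 family genes, Bcl2l13, known as a mitophagy receptor, was lower in aged controls without overlap at both stages. Its CPM was 11.9 to 13.0 against 30.1 to 48.0 in GV and 4.40 to 14.2 against 20.1 to 37.6 in MII oocytes. The log2 ratios were -1.57 and -1.46.

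Casp9, the initiator caspase that APAF1 activates, was sparse, with 172 counts in 10 oocytes. Casp8, the initiator of the death receptor route, had counts in all 16 oocytes, with group means from 71.7 to 162 CPM. For age in GV oocytes 3 of 10 caspases were higher (31.1% of all genes) and 0 lower (12.2%). For NMN in GV oocytes 0 were higher (8.54%) and 2 lower (12.3%). Of 12 inhibitors of apoptosis and their antagonists, 5 were higher (36.3% of all genes) and 0 lower (25.8%) for maturation in young controls. In aged controls 2 were higher (16.9%) and 3 lower (35.9%). For NMN in MII oocytes 0 were higher (14.7%) and 4 lower (33.1%). Birc5 (survivin), which also serves the chromosomal passenger complex, had group means of 1158 to 2158 CPM in GV oocytes, and of 666 to 1008 in the MII groups. It was lower in MII than in GV oocytes without overlap in aged controls (log2 ratio -1.11) and with NMN (-1.10).

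Of 11 mitochondrial pore and intermembrane genes, 8 were lower and 2 higher for maturation with NMN (background 46.7% and 16.9%), 4 lower and 0 higher in aged controls (35.9% and 16.9%), and 1 lower and 4 higher in young controls (25.8% and 36.3%). Endog, a nuclease of the intermembrane space, was at 0 in all 3 MII aged controls and at 11.8 to 20.5 CPM in GV aged controls. Vdac3, a channel of the outer membrane, was at 19.6 to 69.7 against 184 to 329 CPM in the same groups. Slc25a5, the adenine nucleotide carrier ANT2, was 1.24 to 97.4 CPM in MII aged NMN oocytes and 187 to 315 in MII aged controls.

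Damage sensors and p53 family genes showed 7 of 10 higher (36.3% of all genes) and 1 lower (25.8%) for maturation in young controls. For NMN in MII oocytes 3 were higher (14.7%) and 4 lower (33.1%). Chek1, a checkpoint kinase, was higher in MII than in GV oocytes without overlap in all 3 conditions, with log2 ratios of 1.75 for young controls, 1.41 for aged controls and 1.29 for NMN. Mdm4, a p53 inhibitor, was higher without overlap in young (1.66) and aged controls (1.29). Cdkn1a (p21), a p53 target, was 7.18 to 32.4 CPM in MII aged NMN oocytes against 3.63 to 7.00 in MII aged controls. Trp73 was 8.96 to 13.1 CPM in GV aged NMN oocytes against 2.70 to 3.16 in GV aged controls. Of 8 death receptor genes 3 were lower (25.8% of all genes) and 0 higher (36.3%) for maturation in young controls. Among 7 partners of BCL2 proteins 4 were lower (33.1%) and 1 higher (14.7%) for NMN in MII oocytes. The lower ones included Fbxw7 and Usp9x, a ligase and a deubiquitinase known to act on MCL1. Fbxw7 was 0 to 3.44 CPM against 11.6 to 19.3, and Usp9x 0.310 to 139 against 179 to 251.

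The genes whose profiles lay nearest to each of the 3 most abundant members were found by the root mean square difference of log2(CPM + 1), centred on each gene, over 16 oocytes and 6262 genes. For Bcl2l10 they were Sap30 (0.48), Cenpa (0.51) and Plekhj1 (0.58), where the median gene lay at 2.07. For Cycs they were Mrps33 (0.47), Ndufa6 (0.47) and Gnrh1 (0.53), with a median of 2.23. For Apaf1 they were Nme7 (0.59), Immp1l (0.59) and Gtf2a2 (0.62), with a median of 2.18. All profiles share the same libraries and their batches, so these distances are a description of the 16 oocytes.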

How the data were processed

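Per the submitters' processing notes, the tools were TopHat2 2.1.1, Cufflinks, Trim Galore 0.4.5 and FastQC 0.11.8, and the builds named are GRCm38 and mm10. Columns of the deposited tables are those of an RSEM gene table, a tool those notes do not name, and the strand setting is not given in the sources used here. Per the file headers each table holds an expected count per gene, not normalised, and a TPM, a level the authors scaled for effective length.

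Expected counts were rounded to whole numbers. GENCODE vM21 gave symbols for 46574 of 47069 identifiers. From 18 libraries, 1 identical copy of GV young control 1 and GV aged control 2-2 (5008 counts, of which Cycs had 2) were left out, leaving 16. MII aged NMN 2, whose title states batch 2 but lacks an oocyte number, was taken as oocyte 2 of batch 1. filterByExpr of edgeR 4.0.16 (minimum count 10 by group, R 4.3.3) kept 12161 genes, and TMM factors scaled CPM. Means plus 1 CPM gave the log2 ratio between groups, and folds are plain ratios of means. The calculation was tested on simulated data. Tables and figures used numpy 2.4.6, matplotlib 3.10.9 and pandas 2.3.3 in Python 3.11.15. Floors and Poisson intervals describe counting error only.

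The 10 genes and all lists were chosen with earlier results of these data known. All 10 are named. From other lists, up to 4 genes per comparison with the largest ratio were eligible, if at least 2-fold apart, without overlap and not below 10 CPM in the group with more, and the text names a part of them. Bcl2l11, Bbc3, Pmaip1, Casp8 and Casp9 were named after their values were seen, as roles of the pathway. The split by fractional counts, at 18%, was also made after the values were seen. Alternatives were other scalings, added CPM, TPM, pooled counts, batches and left-out oocytes.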

Additional observations from a re-analysis of the deposited data

Results flagged for a closer look

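Aged and young controls differed in Bcl2l1 in opposite directions at the 2 stages, without overlap between oocytes. Both GV aged controls lay above both GV young controls, and all 3 MII aged controls lay below all 3 MII young controls, with log2 ratios of 2.66 and -1.99 that differ by 4.65. The same oocytes give maturation ratios of 2.096 in young and -2.55 in aged controls, which also differ by 4.65, so this is 1 pattern and not 2. The pattern was picked by a rule that asks for opposite directions without overlap in both comparisons. Its lack of overlap was therefore a condition of being listed here. How many of all genes meet that rule was not counted. The difference was not tested. Without GV aged control 1 the GV value was 1.23, and within batch 2 the MII value was -0.85.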

How the results depend on the processing

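No paired analysis was possible because the labels name no animals and no test was made. Of 114 alternative values of the 7 medians and the Bcl2l10 share, 103 moved by less than the spread between oocytes and 11 moved by more. That spread was 0.12 for age in GV oocytes but 0.65 to 1.64 for the other medians, more than the size of each of them. For those, a value of opposite sign could still count as moved by less, so the count does not show that they are stable. The median for age in GV oocytes (0.23) was 0.00 on TPM, 0.0513 with 5 CPM added, 0.0283 with the low library kept, 0.0942 with both identical libraries counted, 0.00 in batch 1 and -0.0258 in batch 2. It was -0.29 with the identical library in batch 2, an alternative chosen after seeing the data, and -0.29 to 0.15 when single oocytes were left out. The median for NMN in GV oocytes (0.23) then ran from -0.0019 to 1.10. Of 1130 values of single genes 18 changed the sign of a called ratio. Mcl1 for NMN in GV oocytes was 0.18 in batch 1 and -2.71 to 0.13 with single oocytes left out. For maturation Mcl1 was 0.50 in batch 2 and -2.10 to 0.19 with oocytes left out in young controls, and 0.17 in batch 1 and -2.72 to 0.12 in aged controls. For NMN in MII oocytes Bcl2l15 was -0.65 on TPM, -0.0424 in batch 1 with NMN 2 as batch 2, -1.15 without NMN 1 and 2, and -0.20 to 3.23 with single oocytes left out. Bcl2l1 was -1.82 in batch 2, 2.65 there with NMN 2 as batch 2, and -1.66 without NMN 1 and 2. Bcl2l10 for maturation in young controls was -0.85 in batch 2 and -0.45 with the identical library in batch 2. With NMN, without MII NMN 1 and 2, Bcl2l10 was -0.23 and Bcl2l1 -4.16, and Bcl2l1 was -2.03 in batch 2, or 2.45 with NMN 2 as batch 2. Bax for maturation in aged controls ran from -1.94 to 0.37 with oocytes left out. The causes were not tested. A group mean here rests on 2 or 3 oocytes, and genes under the floor of 0.537 to 1.09 CPM cannot be ranked.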
